A study of Mus musculus with 7 samples.

Results

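The genes described here encode 35 proteins of the contractile apparatus and of the actin cytoskeleton, chosen by name, and all 35 were among the 19938 genes measured through probe sets that carry 1 gene symbol. They were followed on 7 Affymetrix mouse arrays, each hybridised with 1 RNA sample. Mouse embryonic fibroblasts (MEFs), isolated from 129/OG2 embryos at 13.5 days post coitum, gave 1 array in FBS and 1 array in iCD1, a medium known here by its name alone. Fibroblasts infected with Oct4 had been turned into induced pluripotent stem (iPS) cells, of which O4-1, O4-2 and O4-4 gave 1 array each in KSR, and O4-1 gave 1 more in N2B27(2i). Embryonic stem (ES) cells of OG2 background, whose mice are known for an Oct4-GFP reporter, gave 1 array in N2B27(2i), so that both 2i cultures shared the inhibitors of MEK and GSK3. The genetic background of the iPS lines is not given in the labels, and each line is a single line with 1 array per medium. Values are log2 expression as deposited, so that a difference of 1 is 2-fold.

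Contractile cells pull on actin filaments with bundles of myosin II. Alpha-actinin, filamin, vinculin and zyxin tie the filaments to one another and to adhesion sites, and calponin, transgelin, caldesmon and tropomyosin lie along them. Many of these genes are targets of serum response factor (SRF), which binds CArG boxes and works with cofactors of the MRTF family, which are released when serum or tension lowers the pool of free actin, and of the TCF family, which ERK phosphorylates. Fibroblasts in serum build such stress fibres and can take on smooth muscle genes as myofibroblasts, whereas pluripotent cells in colonies carry few of them.

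The CArG box, CC and GG around 6 bases that are each A or T, was searched in the 250 bases before each RefSeq start (build GRCm38.p6; the motif reads the same on both strands). A start was in the RefSeq table for 31 of the 35 genes. A CArG box lay in this window in 7 of them (22.6%), against 1.45% of 15614 measured genes with a window. The promoters of Myl9 (chr2:156775214-156775463, plus strand) and Fhl1 (chrX:56779433-56779682, plus strand) are shown because these genes were also at least 2-fold lower in MEFs in iCD1 than in FBS. That of Acta2 (chr19:34255374-34255623, minus strand) is shown for its place among the results, and that of Srf (chr17:46556163-46556412, minus strand) because its window holds 2 boxes. Both of these were chosen after the values were seen. Capitals mark CArG boxes and CArG-like words that have 1 G or C among the central 6 bases, and each sequence runs 5′ to 3′ on the gene's strand and ends at the base before the start.
Myl9: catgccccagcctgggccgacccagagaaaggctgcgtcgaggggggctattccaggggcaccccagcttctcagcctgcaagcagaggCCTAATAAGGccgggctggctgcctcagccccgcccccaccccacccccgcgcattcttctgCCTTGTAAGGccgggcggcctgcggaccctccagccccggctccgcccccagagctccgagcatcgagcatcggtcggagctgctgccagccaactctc
Fhl1: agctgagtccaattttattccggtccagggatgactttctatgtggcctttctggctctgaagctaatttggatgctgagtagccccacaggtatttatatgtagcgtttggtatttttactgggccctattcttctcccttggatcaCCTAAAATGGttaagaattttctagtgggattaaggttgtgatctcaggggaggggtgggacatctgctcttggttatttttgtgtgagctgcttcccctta
Acta2: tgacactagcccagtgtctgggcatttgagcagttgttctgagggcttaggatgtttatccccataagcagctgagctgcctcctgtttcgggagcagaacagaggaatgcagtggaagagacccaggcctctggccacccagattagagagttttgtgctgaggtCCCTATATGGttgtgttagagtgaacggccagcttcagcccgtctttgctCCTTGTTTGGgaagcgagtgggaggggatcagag
Srf: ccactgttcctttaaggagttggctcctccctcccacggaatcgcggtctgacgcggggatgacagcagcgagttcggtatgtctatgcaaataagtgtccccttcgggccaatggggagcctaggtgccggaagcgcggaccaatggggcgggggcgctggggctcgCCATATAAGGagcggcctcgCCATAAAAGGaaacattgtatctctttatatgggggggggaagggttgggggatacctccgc
In Myl9 the box CCTAATAAGG began 161 bases before the start and the CArG-like word CCTTGTAAGG 99 bases before it. Fhl1 had CCTAAAATGG at 102 bases, Srf had CCATATAAGG and CCATAAAAGG at 82 and 62 bases, and Acta2 had the CArG-like words CCCTATATGG and CCTTGTTTGG at 84 and 34 bases. The window of another Fhl1 start (chrX:56786277-56786526) held no box, and which start the cells used was not measured. The other genes with a box were Acta1 (CCAAATATGG, 73 bases before the start), Cnn2 (CCTTATAAGG, 56 bases), Vcl (CCTTATAAGG, 227 bases) and Fhl2, with CCAAAAAAGG at 96 bases before one start and CCTTATATGG at 31 bases before another. CArG-like words were in the windows of 3 genes (9.68%), near the 8.08% of measured genes.

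The MCAT word CATTCC, which TEAD factors are known to bind, was searched on both strands in the same windows. It was found in 13 of 31 genes (41.9%), against 13.2% of measured genes. Ankrd1 (chr19:36119845-36120094, minus strand), a target of YAP and TEAD in many cells, is shown with its 2 MCAT words in capitals, both on the opposite strand, 210 and 123 bases before the start. It too was chosen after the values were seen.
Ankrd1: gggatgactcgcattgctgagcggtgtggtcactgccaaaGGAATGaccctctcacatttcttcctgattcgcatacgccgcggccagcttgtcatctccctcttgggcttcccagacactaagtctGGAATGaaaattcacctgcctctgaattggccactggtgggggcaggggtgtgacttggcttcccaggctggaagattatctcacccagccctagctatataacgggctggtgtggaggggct
Such matches are words in a short window, not measured binding, and a gene can have sites elsewhere. Genes with several starts had several windows to hold a word.

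The array medians over all probe sets lay between 4.97 and 5.03. The cultures carried the markers of their labels: 10 pluripotency markers averaged 4.10 on both MEF arrays and 9.70 to 10.18 on the 5 pluripotent arrays. For 10 fibroblast markers the averages were 9.48 in FBS, 9.99 in iCD1, 6.72 to 7.13 in the KSR lines, 6.25 in iPS cells in 2i and 6.85 in ES cells. Markers of skeletal and cardiac muscle averaged 5.29 and 5.14 on the MEF arrays and 4.86 to 5.00 on the others. Myod1 was at 5.74 and Myog at 5.33 in FBS, where the median of the tested genes was 5.25, while the cardiac actin gene Actc1 was at 8.15 and 8.21 on the MEF arrays and at 5.56 to 7.04 on the others. From the lowest values it cannot be read whether a gene was above background. Of the markers of other cell types, 3 of 14 skeletal and cardiac muscle genes fell and 1 rose from MEFs to KSR lines in limma. Among all genes 14.3% fell and 12.1% rose. Of 6 pericyte genes 2 fell, Cspg4, which fell by 1.75, and Rgs5, which fell by 1.27 (limma, adjusted p = 0.00664 and 0.00803). Likewise, 2 of 5 endothelial genes fell and 2 rose, 1 of 5 macrophage genes fell, and 0 of 4 keratinocyte genes were called. Only the KSR lines were replicated (n = 3), and every standard error rests on them.

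Across the 7 arrays, MEFs in FBS had the highest value for 31 of the 35 genes, where this array was highest for 17.4% of all genes. Both MEF arrays lay above all 5 pluripotent arrays for 25 genes, where the share of all genes was 22.0%. MEFs in FBS alone lay above all 5 for 33 genes, with 30.3% of all genes as background, and MEFs in iCD1 alone for 25, with 28.8%. The genes that FBS fibroblasts did not separate were Cnn3, the acidic calponin, and Csrp2, a LIM protein gene. The mean over the 35 genes was 8.65 in FBS and 7.67 in iCD1, then 6.57, 6.89 and 6.44 in lines O4-1, O4-2 and O4-4, and 6.24 and 6.46 in iPS and ES cells in 2i. The ES mean thus lay within the span of the KSR lines. Bulk RNA cannot tell fewer cells of a type from less RNA per cell.

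**Figure D1:**
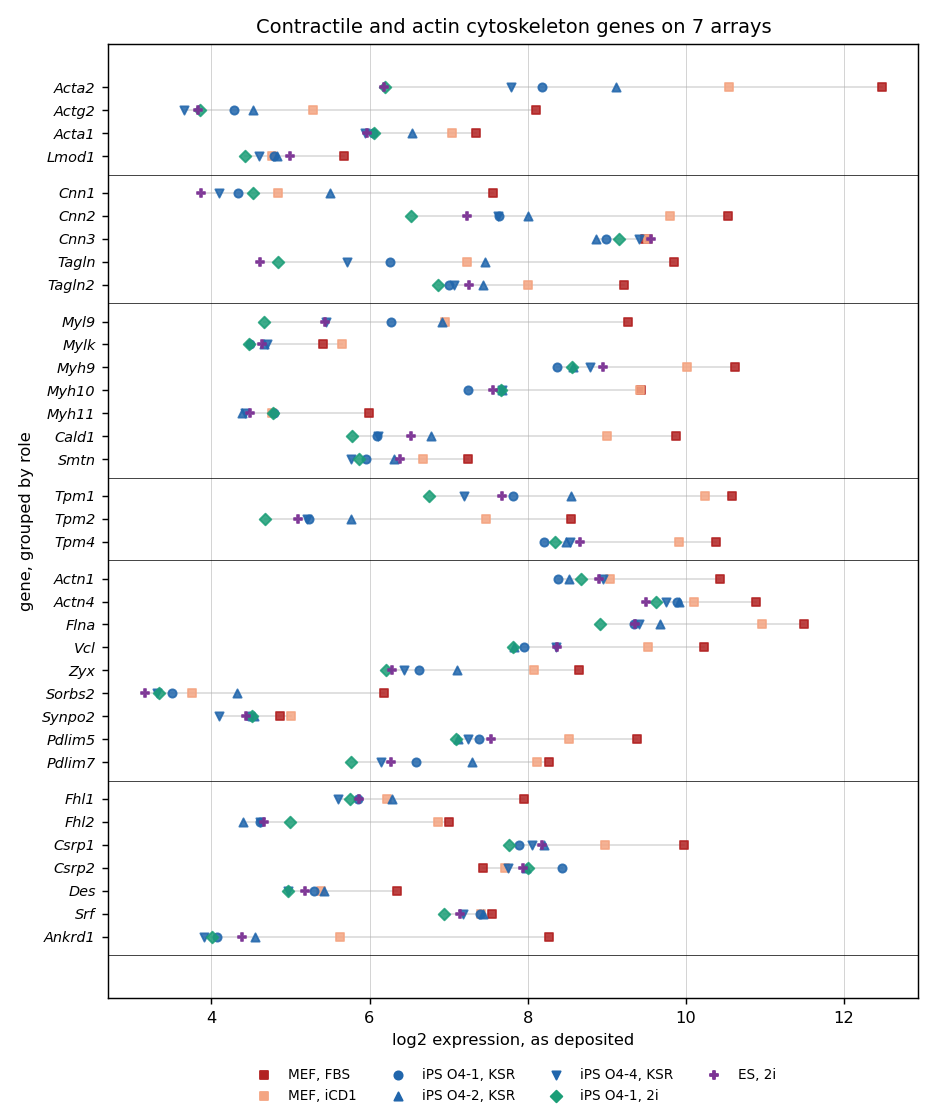
Log2 expression (horizontal axis) of the 35 genes, grouped by role, on each of the 7 arrays. Each point is 1 array. The FBS fibroblast array is the rightmost point for 31 genes, and the iCD1 array reaches the pluripotent points in genes such as Cnn1 and Sorbs2.

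The KSR iPS lines were set against the mean of both MEF arrays to ask which contractile genes differed between fibroblasts and pluripotent cells made with Oct4. Cell type and medium changed together in this comparison. In limma, 23 of the 35 genes fell and 0 rose at an adjusted p of 0.05, where 26.4% of all genes were called, 14.3% lower and 12.1% higher. The median difference was -1.55, against 0.00 over all genes, and 34 of 35 genes were lower. It was -2.02 against MEFs in FBS alone and -0.93 against MEFs in iCD1 alone. In O4-1, O4-2 and O4-4, 9, 8 and 10 of the 35 genes lay below the medians of the tested genes (5.17, 5.23 and 5.16). Such values are not told apart from background. Of the genes called, Actg2, Mylk, Myh11, Fhl2 and Ankrd1 were below these medians in each KSR line. The adjusted p of the 23 genes ran from 0.00659 to 0.0452 (limma), and their falls ranged from 0.65 to 3.15. When either O4-1 or O4-2 was left out, the count was 0 for the members and 0 for all genes, with smallest member adjusted p of 0.0833 and 0.0503 (limma), while 21 and 30 members were lower at an unadjusted p under 0.05, as were 15.7% and 18.5% of all genes. Without O4-4 it called 13 members and 7.87% of all genes lower, and with MEFs in iCD1 as the only fibroblast array 12 members and 11.0% of all genes.

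Among muscle-type actins, Acta2, the smooth muscle alpha-actin gene of stress fibres in myofibroblasts, was at 12.48 in MEFs in FBS and 10.55 in iCD1, at 8.18, 9.12 and 7.79 in KSR lines O4-1, O4-2 and O4-4, and at 6.19 and 6.18 in iPS and ES cells in 2i. Fibroblasts, KSR lines and 2i cultures occupied 3 separate bands that did not overlap. The fall from MEFs to KSR lines was the largest of the 35 (it fell by 3.15 ± 0.47, SE; limma, adjusted p = 0.0224). Actg2, the gamma smooth muscle actin gene, was at 8.11 in FBS, 5.29 in iCD1, 4.28, 4.52 and 3.65 in the KSR lines and 3.85 and 3.83 in 2i. It fell by 2.55 ± 0.31 (limma, adjusted p = 0.0158), but its iCD1 value lay nearer to the KSR lines than to FBS. The skeletal actin gene Acta1 was at -1.02 ± 0.23 and did not pass (limma, adjusted p = 0.0532). Lmod1, which encodes a leiomodin that nucleates filaments in smooth muscle, was at -0.48 ± 0.12 (limma, adjusted p = 0.0607). The coding sequences of the muscle-type actins are close copies, so that signal from one may be read by the probes of another.

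Calponins and transgelins, small proteins that bind along the filaments, split. Cnn2 was at 10.53 and 9.80 in FBS and iCD1 and at 7.64, 8.01 and 7.62 in the KSR lines, with no overlap. It fell by 2.41 ± 0.17 (limma, adjusted p = 0.00824), and Tagln2 fell by 1.45 ± 0.18 (limma, adjusted p = 0.0159). Tagln, which encodes the smooth muscle protein SM22, was at 9.85 and 7.23 in FBS and iCD1 and at 6.26, 7.46 and 5.71 in the KSR lines. Line O4-2 thus lay above MEFs in iCD1, the SD of the 3 lines was 0.90, and the difference of -2.07 ± 0.61 did not pass (limma, adjusted p = 0.0937). Cnn1, the smooth muscle calponin gene, did not pass either, at -1.55 ± 0.52 (limma, adjusted p = 0.118). Cnn3 was at 9.49 and 9.52 in MEFs and at 8.99, 8.87 and 9.41 in the KSR lines, a difference of -0.41 ± 0.21 (limma, adjusted p = 0.248).

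Of 7 genes for myosins and their regulators 6 fell. The heavy chain genes of non-muscle myosin II, Myh9 and Myh10, fell by 1.74 ± 0.16 and fell by 1.89 ± 0.18, and that of smooth muscle myosin, Myh11, fell by 0.85 ± 0.17 (limma, adjusted p = 0.0106, 0.0110 and 0.0410). For Myh11, MEFs in FBS were at 5.99, while MEFs in iCD1, at 4.76, lay inside the span of the KSR lines (4.79, 4.39 and 4.42). Cald1, the caldesmon gene, was at 9.88 and 9.0 in FBS and iCD1 and at 6.10, 6.78 and 6.11 in the KSR lines. It fell by 3.11 ± 0.28 (limma, adjusted p = 0.00993). Mylk, whose kinase phosphorylates the myosin light chain, fell by 0.91 ± 0.11, and the smoothelin gene Smtn fell by 0.95 ± 0.20 (limma, adjusted p = 0.0156 and 0.0452). The light chain gene Myl9 itself was at 9.27 and 6.95 in FBS and iCD1 and at 6.27, 6.92 and 5.45 in the KSR lines. MEFs in iCD1 stood just above line O4-2, and the difference of -1.89 ± 0.51 did not pass (limma, adjusted p = 0.0760).

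All 3 tropomyosin genes fell: Tpm2 fell by 2.61 ± 0.23, Tpm1 fell by 2.57 ± 0.47 and Tpm4 fell by 1.74 ± 0.14 (limma, adjusted p = 0.00977, 0.0335 and 0.00906). Muscle and non-muscle transcripts of these genes were not separated here. Of 9 genes for crosslinkers, adhesion and Z-disc proteins 6 fell. The filamin gene Flna was at 11.50 and 10.97 in FBS and iCD1 and at 9.35, 9.67 and 9.41 in the KSR lines, and it fell by 1.76 ± 0.14 (limma, adjusted p = 0.00884). Vinculin (Vcl) fell by 1.83 ± 0.20, Pdlim5 fell by 1.71 ± 0.12, zyxin (Zyx) fell by 1.64 ± 0.25, and the alpha-actinin genes Actn1 and Actn4 fell by 1.11 ± 0.22 and fell by 0.65 ± 0.10. Pdlim7, Sorbs2 and Synpo2, which encode proteins of stress fibres or Z-discs, did not pass, at -1.51 ± 0.40, -1.26 ± 0.37 and -0.57 ± 0.18 (limma, adjusted p = 0.0738, 0.0944 and 0.106).

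Among 7 genes for LIM-only proteins, desmin and transcriptional regulators 4 fell. Fhl2, a LIM-only cofactor of SRF, was at 7.0 and 6.87 in MEFs and at 4.61, 4.40 and 4.61 in the KSR lines. These KSR values lay below the medians of the tested genes and are not told apart from background. The lines stayed within 0.21 of each other, and Fhl2 fell by 2.39 ± 0.11 (limma, adjusted p = 0.00659). Ankrd1, which encodes a muscle ankyrin repeat protein, was at 8.27 in FBS, 5.63 in iCD1 and 4.07, 4.55 and 3.91 in the KSR lines, and it fell by 2.77 ± 0.24 (limma, adjusted p = 0.00953). Csrp1 fell by 1.43 ± 0.14 and Fhl1 fell by 1.17 ± 0.25 (limma, adjusted p = 0.0106 and 0.0452). For Fhl1, MEFs in FBS were at 7.95, while MEFs in iCD1, at 6.22, lay inside the span of the KSR lines (5.86, 6.28 and 5.60). The gene of the factor itself, Srf, was at 7.55 and 7.41 in MEFs and at 7.4, 7.43 and 7.18 in the KSR lines. These ranges overlapped, with a difference of -0.14 ± 0.12 (limma, adjusted p = 0.478). Desmin (Des), an intermediate filament gene of muscle, was at -0.64 ± 0.18 (limma, adjusted p = 0.0825). Csrp2 was the member with a positive difference, at 7.43 and 7.71 in MEFs and 8.43, 7.98 and 7.75 in the KSR lines (0.48 ± 0.25; limma, adjusted p = 0.258). Fibroblast markers moved with these genes: 9 of the 10 fell, with averages of 9.48 and 9.99 in MEFs and 6.72 to 7.13 in the KSR lines. Pericyte markers averaged 5.59 and 5.38 in MEFs and 4.69 to 5.15 in the KSR lines. The part of either list in the result was not tested.

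**Figure D2:**
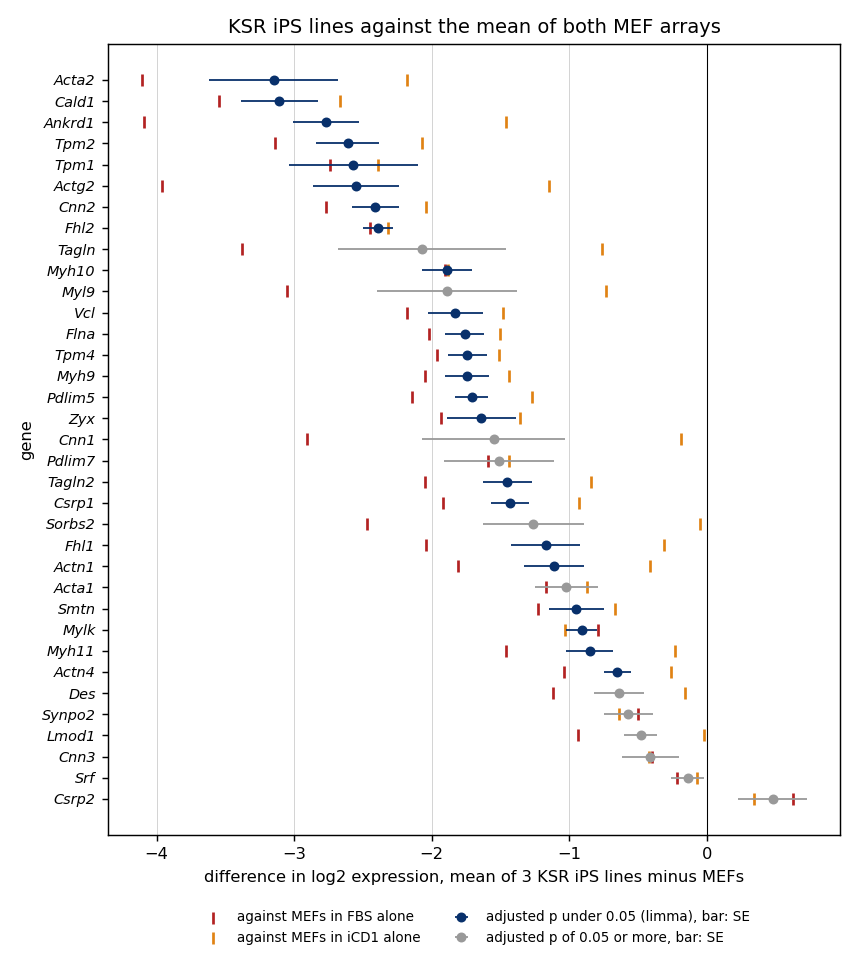
Difference in log2 expression between the mean of the 3 KSR iPS lines and the mean of both MEF arrays (points, with SE from limma), with the difference from each MEF array alone as ticks. Dark points mark the 23 genes with an adjusted p under 0.05. The ticks lie far apart for Actg2, Ankrd1, Cnn1, Tagln and Sorbs2 and almost coincide for Myh10, Fhl2 and Cnn3.

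MEFs in iCD1 were set against MEFs in FBS to see how the medium went with contractile gene expression in fibroblasts. No test was made, since each medium had 1 array. The iCD1 array had the lower value for 31 of the 35 genes. The gap reached 2-fold for 12 of these, and 0 genes were higher by that much. Among all genes 53.0% were lower at any size, 0.998% were 2-fold or more lower and 1.7% 2-fold or more higher. The median difference was -0.78, against -0.02 over all genes. The drop exceeded the whole range of the 3 KSR lines for 24 genes, where this held for 20.2% of all genes, and it did so for all 12 that were 2-fold or more lower.

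The lowest differences were those of Actg2, at 5.29 in iCD1 against 8.11 in FBS (-2.81), and Cnn1, at 4.84 against 7.56 (-2.72). Next to them were Ankrd1, at 5.63 against 8.27, Tagln, at 7.23 against 9.85, and the adaptor gene Sorbs2, at 3.75 against 6.18. Cnn1, Sorbs2, Myh11, Lmod1 and Synpo2 lay below the median of the tested genes in iCD1 (5.27), and their values there are not told apart from background. Actg2, at 5.29, lay barely above this median, so that its value in iCD1 carries the same limit. Myl9, whose promoter is printed above with a CArG box, was at 6.95 against 9.27, a difference of -2.32, and Acta2 at 10.55 against 12.48, a difference of -1.93. Fhl1, the other gene printed with a box, was at 6.22 against 7.95, and Actn1 at 9.04 against 10.44. Myh11, Tagln2 and Tpm2 were the remaining genes past 2-fold, at -1.23, -1.21 and -1.07, and Csrp1 (-0.99), Des (-0.96) and Lmod1 (-0.92) lay just inside it.

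Within families the differences varied. Non-muscle myosin Myh10 was at 9.42 in iCD1 and 9.44 in FBS, and Myh9 at 10.02 and 10.63. Tpm1 was at -0.35 and Tpm4 at -0.46, while Tpm2 was at -1.07. Actn1 was at -1.40, whereas its relative Actn4 was at -0.78. Calponins ran from -2.72 for Cnn1 through -0.73 for Cnn2 to 0.03 for Cnn3, and the LIM-only genes from -1.73 for Fhl1 to -0.13 for Fhl2. Srf itself was at -0.14. The 4 genes not lower in iCD1 were Cnn3, Synpo2 (0.14), Mylk (0.25) and Csrp2 (0.28).

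For 10 genes MEFs in iCD1 did not lie above all 5 pluripotent arrays, and for 8 of these MEFs in FBS did, as was so for 8.38% of all genes. Cnn1, at 4.84 in iCD1, lay inside the span of the KSR lines (4.34, 5.50 and 4.09), and so did Tagln, Sorbs2, Myh11, Fhl1, Des, Lmod1 and Srf. For Srf the MEF arrays were close, at 7.41 in iCD1 and 7.55 in FBS. The share of all genes with an iCD1 value inside the KSR span was not counted. Sorbs2, at 3.75 in iCD1, stood between 3.50 in line O4-1 and 4.32 in line O4-2. Fibroblast markers did not go along with the contractile genes here, since 5 of 10 were lower in iCD1 and 5 higher, with Dcn, Pdgfra and Col3a1 higher by 2-fold or more. Of 6 pericyte markers, cells that also carry smooth muscle genes, 4 were lower in iCD1, with Mcam past 2-fold at 6.12 against 7.56, while Notch3 was at 7.04 against 6.02. The averages of this list were 5.59 in FBS and 5.38 in iCD1, and its part in the result was not tested.

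Genes with and without a CArG box in the 250-base window were set side by side for the difference between iCD1 and FBS. The 7 genes with a box had a median difference of -0.70, from -2.32 for Myl9 to -0.13 for Fhl2, and 2 of them were 2-fold or more lower. The 24 genes without a box had a median of -0.82, from -2.72 to 0.25, with 7 genes 2-fold or more lower. Acta2 (-1.93), whose window held CArG-like words only, was counted among those without a box. Actg2 (-2.81), Tagln (-2.62), Myh11 (-1.23) and Csrp2 (0.28) had no RefSeq start here and were in neither group. The medians thus leave out some of the lowest differences. For the MCAT word the medians were -0.70 in the 13 genes with it and -0.80 in the 18 without it. These medians describe 1 pair of arrays, and the genes of both groups were chosen by name.

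**Figure D3:**
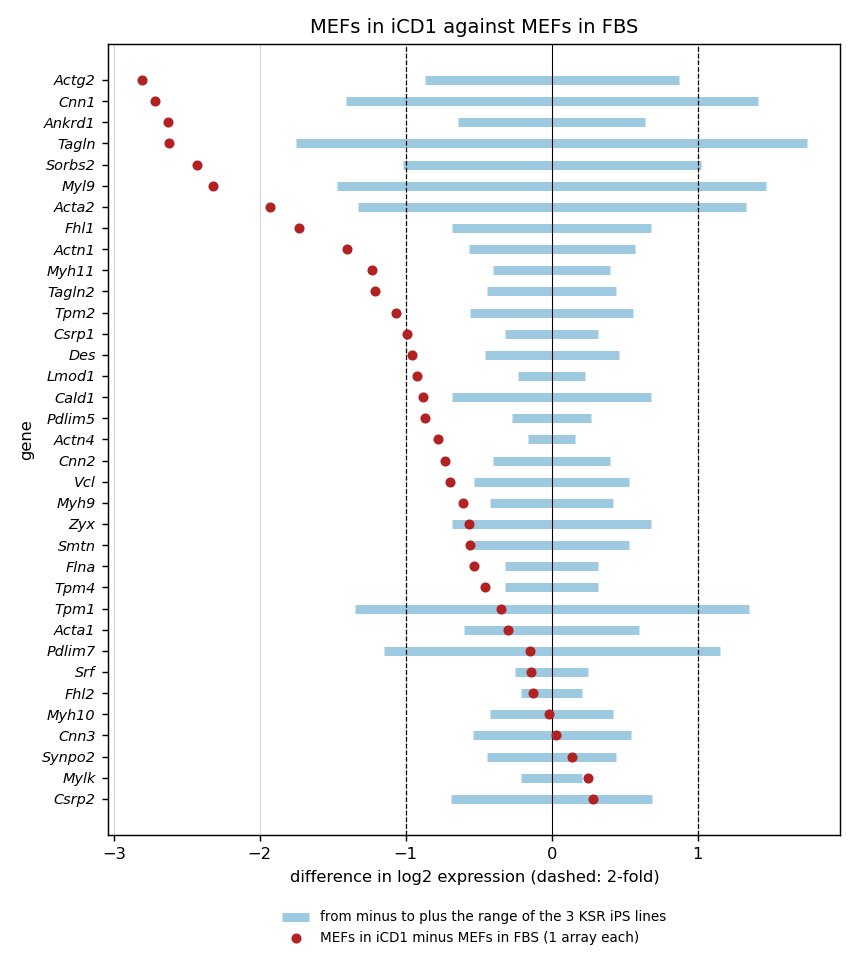
Difference in log2 expression between MEFs in iCD1 and MEFs in FBS (red points, 1 array each), in ascending order. Blue bars run from minus to plus the range of the 3 KSR iPS lines, and dashed lines mark 2-fold. The 12 genes left of the lower dashed line all lie beyond their blue bar.

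The KSR lines differed among themselves in these genes. Line O4-2 had the highest of the 3 values for 25 of the 35 genes, where it was highest for 34.9% of all genes, and O4-4 had the lowest for 21, where it was lowest for 34.5%. O4-2 exceeded O4-4 by 2-fold or more for 7 genes (1.39% of all genes): Tagln (7.46 against 5.71), Myl9 (6.92 against 5.45), Cnn1 (5.50 against 4.09), Tpm1 (8.55 against 7.2), Acta2 (9.12 against 7.79), Pdlim7 (7.30 against 6.15) and Sorbs2 (4.32 against 3.31). Tagln, Myl9, Cnn1, Acta2 and Sorbs2 were also among the genes 2-fold or more lower in MEFs in iCD1 than in FBS, and Tpm1 and Pdlim7 were not. The share of all genes past 2-fold in both comparisons was not counted, so no result is read from this overlap. The medians of the tested genes were 5.17, 5.23 and 5.16 in O4-1, O4-2 and O4-4. Sorbs2 lay below them in each line and Cnn1 in O4-1 and O4-4, where values are not told apart from background. The order was not the same everywhere, since Vcl (7.83 in O4-2 and 8.36 in O4-4), Cnn3 (8.87 and 9.41) and Actn1 (8.52 and 8.96) were higher in O4-4. The averages of the fibroblast markers were 6.72, 6.79 and 7.13 in O4-1, O4-2 and O4-4. Col1a1 was at 9.17, 9.21 and 10.32, and Col1a2, Col3a1, Dcn and Pdgfrb were also highest in O4-4. Thy1 (6.17, 5.96 and 5.70), Pdgfra (6.44, 5.96 and 5.78) and Twist2 (5.31, 5.59 and 5.16) were lowest in O4-4. Twist1 and Prrx1 hardly differed between O4-2 and O4-4. Pluripotency markers differed between these lines too: in O4-1, O4-2 and O4-4 Nanog was at 10.16, 9.94 and 11.55, Fbxo15 at 9.58, 8.38 and 9.85, Esrrb at 7.78, 7.0 and 8.41, and Zfp42 at 8.86, 7.8 and 9.04. Utf1 (9.71, 9.89 and 7.58), Tdgf1 (11.56, 11.75 and 11.23) and Pou5f1 (10.99, 10.99 and 10.61) went the other way, with the lowest value in O4-4. Sox2, Sall4 and Dppa5a were highest in O4-4, but their ranges over the 3 lines were only 0.24, 0.25 and 0.32. The averages of the 10 markers ran from 9.70 to 10.03. The part of either list in the spread between lines was not tested.

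How the contractile genes of iPS cells differed between 2i and KSR was asked with 1 array in 2i and the 3 lines in KSR. Limma called 0 of the 35 genes and 0.0% of all genes in either direction. At an unadjusted p under 0.05, 3 genes were lower and 1 higher, against 3.0% and 3.72% of all genes. These were Acta2, Cnn2 and Flna, with unadjusted p of 0.0254, 0.00612 and 0.0405, and Fhl2 with 0.0416 (limma; the smallest adjusted p of a member was 0.727). The median difference was -0.23, against 0.01 over all genes, and 29 of 35 genes were lower in 2i, where 47.1% of all genes were. The 2i value lay below all 3 KSR lines for 18 genes and above all 3 for 1 gene (Fhl2), where 23.7% and 27.4% of all genes did.

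Acta2 had the largest difference, at 6.19 in 2i against 8.18, 9.12 and 7.79 in the KSR lines (-2.18 ± 0.59, SE; limma, adjusted p = 0.727). ES cells in 2i were at 6.18, so that both 2i cultures sat together below the KSR lines. Tagln was at 4.84 and 4.62 in iPS and ES cells in 2i and at 6.26, 7.46 and 5.71 in KSR, again with no overlap (-1.63 ± 0.78 for iPS cells; limma, adjusted p = 0.739). Myl9 was at 4.67 in iPS and 5.44 in ES cells in 2i, just below the 5.45 of line O4-4. Cnn2 was at 6.52 and 7.23, both below the 7.62 to 8.01 of the KSR lines. Tpm1, at 6.75, was below the KSR lines in iPS cells, while ES cells at 7.67 lay among them. Both 2i arrays lay below all 3 KSR lines for 8 genes, where 13.1% of all genes did, and these were Acta2, Cnn2, Tagln, Myl9, Tpm2, Actn4, Zyx and Srf. Fhl2 was the gene for which both lay above (4.99 and 4.67 against 4.40 to 4.61), where 12.9% of all genes did. Tagln, Tpm2 and Fhl2 on both 2i arrays, and Myl9 in iPS cells, lay below the medians of tested genes there (5.19 for iPS, 5.20 for ES).

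Within line O4-1, grown in both media, 5 genes were 2-fold or more lower in 2i and 0 higher, where 0.953% of all genes were lower and 0.481% higher by that much. These were Acta2 (-1.99), Myl9 (-1.60), Tagln (-1.42), Cnn2 (-1.12) and Tpm1 (-1.07). Non-muscle myosin genes were not among them, with Myh9 at 8.37 in KSR and 8.56 in 2i and Myh10 at 7.25 and 7.66. Fibroblast markers were low on this array too: 7 of 10 lay below all 3 KSR lines, the average was 6.25 against 6.72 to 7.13, and Thy1 was at 4.71 against 5.70 to 6.17. Their part in the result was not tested.

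**Figure D4:**
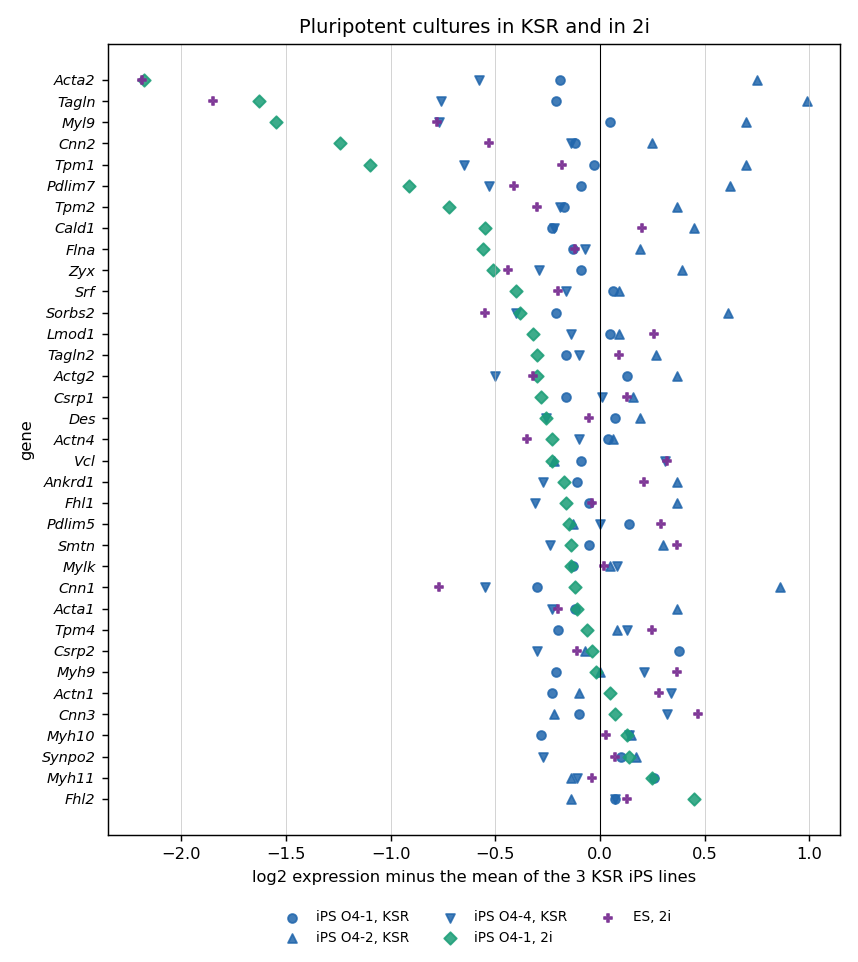
Log2 expression of each gene on the 5 pluripotent arrays, minus the mean of the 3 KSR iPS lines, ordered by the iPS array in 2i (green diamonds). Acta2 and Tagln show both 2i arrays left of all KSR lines, whereas for Cald1 and Smtn the ES array lies right of the KSR mean. O4-2 (upward triangles) is the rightmost KSR line for 25 genes.

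ES cells and iPS cells, both in 2i, were compared to ask how far pluripotent cells of different origin differed in these genes in 1 medium. With 1 array each, no test was made. Of the 35 genes 0 differed 2-fold or more, where 0.672% of all genes were higher and 0.306% lower in ES cells by that much. Differences ran from -0.65 for Cnn1 (3.87 in ES and 4.52 in iPS cells) to 0.92 for Tpm1 (7.67 and 6.75), with a median of 0.23 against -0.01 over all genes. ES cells were higher for 23 genes, where 46.5% of all genes were. Myl9 (0.77), Cald1 (0.75) and Cnn2 (0.71) followed Tpm1, while Acta2, Actg2, Acta1 and Tagln, at 0.00, -0.02, -0.09 and -0.22, were close between the arrays. Actg2, Tagln and Cnn1 on both arrays, and Myl9 in iPS cells, lay below the medians of tested genes (5.19 for iPS, 5.20 for ES). Such values are not told apart from background. Differences exceeded the range of the KSR lines for 8 genes, a share of 22.9%, where 29.3% of all genes did so. Fibroblast markers were higher in ES cells for 9 of 10 genes, 2 of them 2-fold or more (Dcn, at 7.25 against 5.91, and Col3a1, at 8.29 against 7.02), and their part in the result was not tested.

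Other genes of the pathway were followed through lists that hold none of the 35. Beside them, 14.3% of all genes fell and 12.1% rose from MEFs to KSR lines in limma. In iCD1, 0.998% of all genes were 2-fold or more lower and 1.7% 2-fold or more higher than in FBS. Of 6 SRF cofactors 4 fell from MEFs to KSR iPS lines in limma, with Elk3 at 8.19 and 8.40 in MEFs and 6.03, 5.84 and 5.40 in the lines (it fell by 2.54 ± 0.23, adjusted p = 0.0103). The MRTF genes Mrtfa and Mrtfb, whose products carry the actin signal to SRF, fell by 1.08 ± 0.13 and fell by 0.60 ± 0.13 (limma, adjusted p = 0.0144 and 0.0481), and Elk4 fell by 1.14 ± 0.08 (limma, adjusted p = 0.00840). Myocd, the smooth muscle cofactor, was at 4.34 and 4.01 in MEFs and 3.92 to 4.21 elsewhere. In iCD1 0 of the 6 cofactors differed 2-fold or more from FBS, with differences from -0.33 for Myocd to 0.48 for Mrtfb. Of the YAP, TAZ and TEAD genes 2 of 6 fell in the KSR lines, Wwtr1, which fell by 1.51, and Tead3, which fell by 1.36 (limma, adjusted p = 0.00932 and 0.0186), and 0 of 6 differed 2-fold or more between the MEF arrays.

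Of 13 other SRF and YAP targets 6 fell in the KSR lines, with the largest fall for the matrix gene Thbs1 (it fell by 3.28 ± 0.22; limma, adjusted p = 0.00799). Between MEFs in iCD1 and in FBS this list went both ways. Ccn2 was at 7.49 against 9.39 and Thbs1 at 10.67 against 12.37, whereas the immediate early genes Fosb, at 9.23 against 7.49, and Fos, at 9.37 against 7.86, were higher in iCD1. Of 29 genes for cytoplasmic actin and filament assembly 15 fell in the KSR lines, led by Pls3, which fell by 3.28 ± 0.32 (limma, adjusted p = 0.0113). Actb, the cytoplasmic beta-actin gene, was at 12.95 in FBS, 12.69 in iCD1 and 12.13 to 12.34 on the pluripotent arrays, and it fell by 0.55 ± 0.09 (limma, adjusted p = 0.0285). In iCD1 0 of these 29 genes differed 2-fold or more from FBS, and their median difference was -0.03 beside -0.78 for the 35 contractile and cytoskeleton genes.

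Of 17 focal adhesion genes 10 fell in the KSR lines, with Lpp, a zyxin relative, at the low end (it fell by 3.30 ± 0.08; limma, adjusted p = 0.00659). Lpp was also the gene of this list that was 2-fold or more lower in iCD1, at 8.86 against 10.07. Of 8 other myosin genes 4 fell, and Myo1c, at 8.0 against 9.02, was lower in iCD1 by 2-fold or more. Of 15 further PDLIM, FHL and CRP family genes 6 fell in the KSR lines, led by the muscle filamin gene Flnc, which fell by 3.22 ± 0.19 (limma, adjusted p = 0.00756), and 0 differed 2-fold or more between the MEF arrays. Of 13 genes of TGF-beta signalling, a pathway that induces contractile genes in fibroblasts, 7 fell in the KSR lines. In MEFs the ligand gene Tgfb2 was at 9.30 in iCD1 and 7.24 in FBS, and Smad7 at 7.03 against 8.01. In limma 0 genes of the lists described here were called between iPS cells in 2i and the KSR lines.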

How the data were processed

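Log2 expression per probe set on 7 arrays, deposited by the authors, was, per the submitters' processing notes, produced using Partek and RMA, and their versions are not given in the sources here. Total RNA (100 ng per array) was labelled by the Affymetrix whole transcript assay, per the labels' protocols. The values were used as deposited. Of 28853 probe sets 21789 carry 1 symbol in the platform annotation, and the one with the highest mean over the 7 arrays stood for its gene, which left 19938 genes. Of the 35 members 1 (Myh9) had more than 1 such probe set.

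Groups follow titles and growth conditions. Descriptions and source names contradict them in places, since all samples are described as iPS cells after infection, the ES source reads fibroblasts, and the iPS sources name iCD1. No batch is recorded in the labels. Whether the cultures were separate is unstated, so that p-values reflect only how the 3 KSR lines spread, which may be technical.

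Limma 3.58.1 in R 4.3.3 was run in 1 fit of 5 groups. Its two-sided p-values were adjusted by Benjamini-Hochberg across the 19938 genes, at 0.05. It had 2 residual degrees of freedom and 1.62 from the prior, and single arrays were assumed to vary like the KSR lines. The fit was tested on simulated data. Pairs of single arrays were counted at 2-fold. Errors after differences are standard errors. Members and lists were chosen with earlier results of these data known. Any member could be named, and of other lists the highest and lowest gene of a comparison, any gene of lists of 6 or fewer, Actb and markers. Other genes named beside small counts were chosen after their values were seen. The result of 1 further gene list is not reported here. Promoter sequences are from RefSeq (GRCm38.p6). The number of arrays limits the precision.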

Additional observations from a re-analysis of the deposited data

How the results depend on the processing

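For KSR iPS lines against MEFs, 23 members were called, and leaving out 1 line gave 0 to 13 (0 without O4-1 or O4-2, 13 without O4-4), when 1 residual sample fewer was left for the spread. MEFs in iCD1 alone gave 12, and the cause was not tested. An intensity trend, a filter on low values, quantile normalization, the mean over probe sets, MEFs in FBS alone and both MEF arrays as 1 group gave 20 to 31. Of the genes tested in each setting 8.34% to 26.6% were lower. The filter kept 34 members and 11817 genes, and it gave 31 members and 26.6% of the genes kept. FBS alone gave 22 members and 8.34% of all genes. Over all genes, 5260 calls became 0, 0 and 2776 without O4-1, O4-2 and O4-4, and 2968 and 3947 with FBS and iCD1 alone. For iPS cells in 2i against KSR the count stayed 0 in each refit, while line O4-1 alone gave 5 at 2-fold with no test. At 1.5-fold in place of 2-fold the count was 21 in place of 12 for iCD1 against FBS, all lower, as 4.64% of all genes were, and 6 in place of 0 for ES against iPS cells (5 higher, with 3.44% of all genes, and 1 lower, with 2.41%). Median differences kept their direction, from -2.02 (FBS alone) to -0.93 (iCD1 alone) for KSR lines against MEFs, from -1.72 to -1.43 when 1 line was left out, and from -0.32 to -0.16 for iPS cells in 2i against KSR. No paired analysis was possible because the groups compared share only line O4-1. No signal over background is given with the values, which limits what can be said of genes near the array medians.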

Other observations

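Some SRF and YAP targets outside the contractile and cytoskeleton genes were further apart between the 2i cultures than any of the 35 genes. Of that list of 13, 12 were higher in ES than in iPS cells in 2i and 5 of them 2-fold or more, where 0.672% of all genes were. Thbs1, a matrix glycoprotein gene, was at 8.61 in ES and 6.66 in iPS cells, Ccn1 at 10.49 and 8.75, and Ccn2 at 9.37 and 8.19. The immediate early genes Egr2 and Fos were at 6.83 and 7.84 in ES cells and at 5.23 and 6.72 in iPS cells. Each culture had 1 array, and no test was made.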
